A study of Mus musculus with 6 samples.

Results

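The transcripts of 10 genes that build the cornified envelope or belong to the filaggrin group of proteins were followed in mouse tail epidermis with age: Ivl, Lor, Flg, Flg2, Hrnr, Rptn, Tgm1, Tgm3, Casp14 and Asprv1. They were found through the RefSeq accession that each array probe carries. In this way 9 of the 10 genes, of 21368 genes named on the array, were represented, by 11 probes. No probe carried the accession held here for Flg, the filaggrin gene, so Flg itself was not analysed here. All 9 genes were well above background on all 6 arrays, so none depended on the filter for low signal.

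The samples were epidermis of the tail of wild type C57BL/6 mice, lifted from the dermis with EDTA and taken as total cells. Young mice were 8 weeks old (n = 3 arrays). The aged group (n = 3 arrays) held 1 sample from a mouse of 22 months, aged replicate 1, and 2 samples from mice of 25 months, aged replicates 2 and 3. Neither sex nor whether the arrays came from different animals is stated in the labels, and the p-values therefore reflect only how far these 6 samples spread, which may be technical. The comparison asked which transcripts differ between young and aged epidermis.

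The cornified envelope is the protein shell that replaces the plasma membrane of a keratinocyte at the end of its life. Transglutaminases join precursors such as involucrin and loricrin into this shell, while filaggrin and its relatives bind keratin filaments in the cells beneath the surface, and proteases later cut them. Genes for many of the precursors lie together in a gene cluster, the epidermal differentiation complex, and are switched on as cells leave the basal layer. In mouse tail skin, filaggrin marks the interscale epidermis, which lies between scales that cornify in another way.

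Upstream sequences are shown for the gene with the largest difference, Rptn, for its neighbour Hrnr, and for Lor and Ivl, whose values varied least over the arrays. Each is the 250 bases before the transcription start in RefSeq (GRCm38.p6), 5′ to 3′ on the strand of the gene: chr3:93393449-93393698 (plus strand) for Rptn, chr3:93319499-93319748 (plus strand) for Hrnr, chr3:92083143-92083392 (minus strand) for Lor and chr3:92573736-92573985 (minus strand) for Ivl. Capitals mark matches to TATAAA, the TATA box, and to TGANTCA. The latter is a loose form of the motif of AP-1, a transcription factor active in keratinocyte differentiation. The usual AP-1 motif has C or G in place of N.
Rptn: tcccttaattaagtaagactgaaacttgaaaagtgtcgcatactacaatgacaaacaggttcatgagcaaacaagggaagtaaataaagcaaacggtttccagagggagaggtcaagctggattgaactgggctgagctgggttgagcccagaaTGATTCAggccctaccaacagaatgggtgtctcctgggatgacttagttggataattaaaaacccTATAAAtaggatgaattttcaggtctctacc
Hrnr: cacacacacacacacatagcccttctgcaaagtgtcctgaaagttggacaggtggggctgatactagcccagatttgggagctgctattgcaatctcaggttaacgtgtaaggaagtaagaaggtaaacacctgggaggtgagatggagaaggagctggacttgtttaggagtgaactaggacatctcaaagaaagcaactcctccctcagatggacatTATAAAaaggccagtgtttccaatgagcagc
Lor: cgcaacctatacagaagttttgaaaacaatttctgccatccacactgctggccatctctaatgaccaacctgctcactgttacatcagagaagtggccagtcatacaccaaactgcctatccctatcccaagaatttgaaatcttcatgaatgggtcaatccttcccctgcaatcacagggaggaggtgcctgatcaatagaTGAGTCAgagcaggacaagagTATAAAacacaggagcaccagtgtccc
Ivl: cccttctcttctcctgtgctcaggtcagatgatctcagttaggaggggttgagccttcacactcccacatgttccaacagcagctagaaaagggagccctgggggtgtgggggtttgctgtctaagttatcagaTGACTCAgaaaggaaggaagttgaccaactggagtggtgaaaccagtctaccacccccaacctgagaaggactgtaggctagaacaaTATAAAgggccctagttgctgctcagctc

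Both strands were searched, and the motifs did not overlap in these windows. TATAAA stood in the windows of 6 of the 10 genes (Ivl, Lor, Flg, Hrnr, Rptn and Tgm3), against 12.4% of 32851 RefSeq promoter windows of the same length. TGANTCA stood in 5 of the 10 (Ivl, Lor, Flg, Flg2 and Rptn), against 6.75% of all windows. The motif of AP-2, GCCNNNGGC, stood in 0 of the 10 and in 13.7% of all windows. Rptn and Hrnr are neighbours. The window of Rptn held TGATTCA, which has T in place of N, at position -96, counted back from the start. That of Hrnr held no match to TGANTCA. The match in Ivl was TGACTCA at position -116 and that in Lor was TGAGTCA at position -48. Only these matches had C or G in place of N, since Flg and Flg2 held TGAATCA. Such a match describes letters and is not evidence of binding.

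No gene of the group passed the threshold, a Benjamini-Hochberg adjusted p of 0.05 over 25068 features in limma. The count was 0 of 9, where 0.0638% of all features passed, and at an unadjusted p under 0.05 it was 1 of 9, against 18.4% of all features, or 8.54% counting lower ones alone. The gene at an unadjusted p under 0.05 was Rptn, which was also the only gene of the 9 whose young and aged values did not overlap, against 26.7% of all features, or 10.1% counting lower ones alone. For the other 8 genes the 95% confidence interval of the difference lay within 2-fold in either direction. Of the 9 genes 2 were higher and 7 lower, and their median difference was -0.06 log2 units, against 0.04 for all features. Scaling the arrays to their median gave 5 higher and 4 lower, with medians of 0.01 for the 9 genes and 0.11 for all features. Values below are log2 signal minus the 75th percentile of the same array, so a level can be set against another array but not against another probe.

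**Figure D1:**
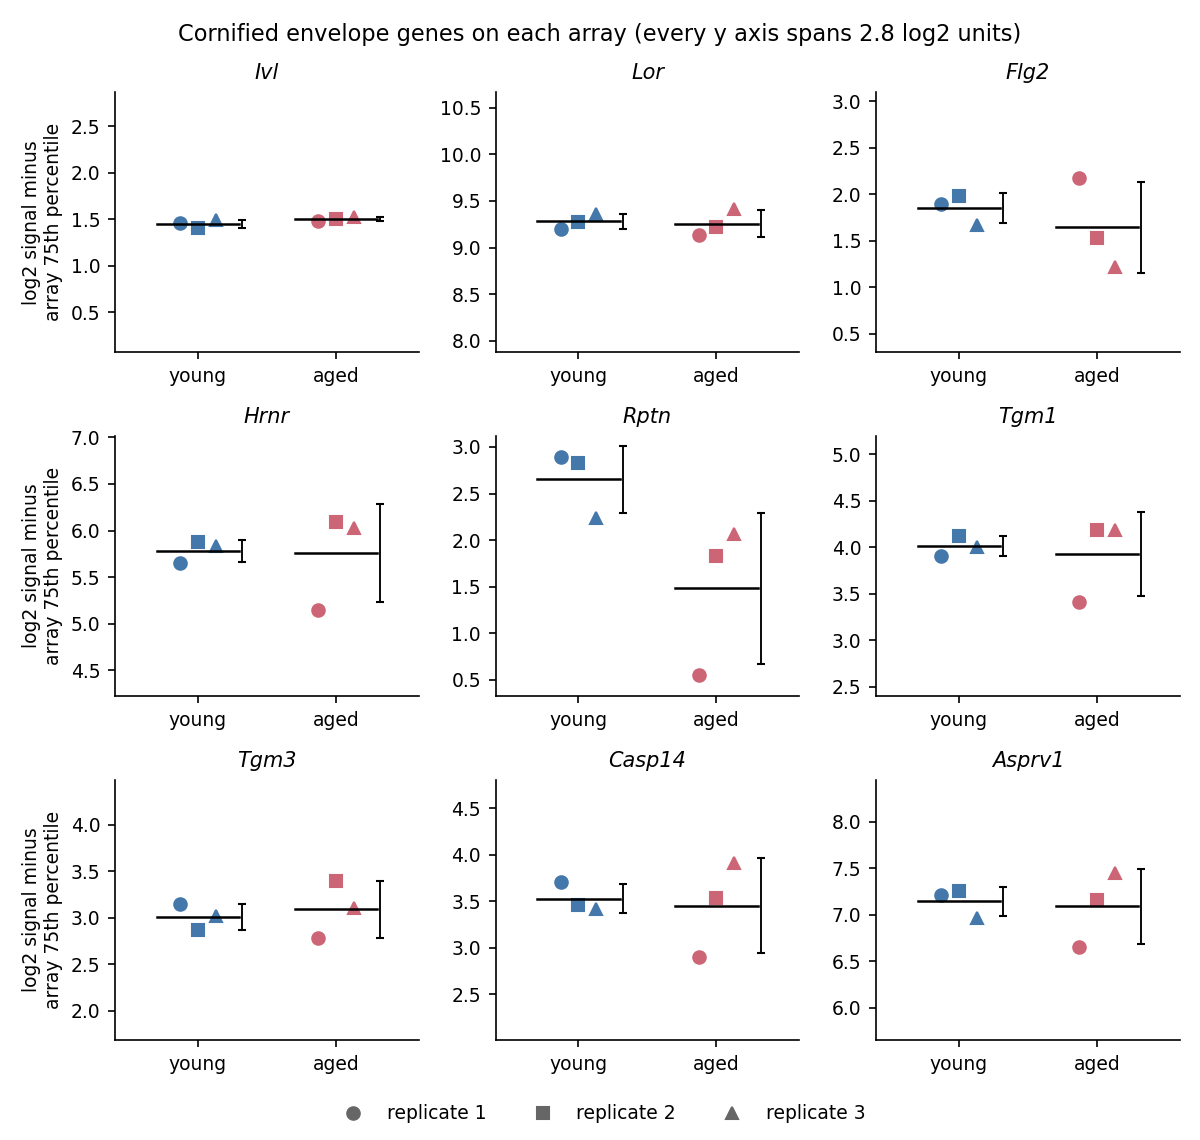
Log2 signal minus the array's 75th percentile for the 9 genes on the 3 young (blue) and 3 aged (red) arrays, with symbols for replicates, a line at the group mean and a bar of 1 SD. Every panel spans the same number of log2 units, and aged replicate 1 is the lowest of the 6 arrays in 7 of the 9 panels.

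Ivl encodes involucrin, an early precursor laid down beneath the plasma membrane. Its values were 1.46, 1.41 and 1.49 in young replicates 1, 2 and 3 and 1.48, 1.51 and 1.53 in aged replicates 1, 2 and 3. The 6 values spanned 0.12 log2 units and the groups overlapped. The difference, aged minus young, was 0.05 ± 0.10 (SE, 95% interval -0.19 to 0.30, limma adjusted p = 0.806). A second probe of Ivl gave 0.89, 0.79 and 0.91 in the young and 1.01, 1.01 and 0.79 in the aged arrays, a difference of 0.07 ± 0.12 (adjusted p = 0.775 over all probes). Both probes thus gave a small positive difference within the spread of the arrays.

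Lor encodes loricrin, the main protein of the mature envelope. Its values were 9.20, 9.28 and 9.36 in young and 9.13, 9.22 and 9.41 in aged epidermis, and no spot was saturated. Aged replicate 1 gave the lowest value and aged replicate 3 the highest, on either side of the young range. The difference was -0.03 ± 0.12 (95% interval -0.33 to 0.27, limma adjusted p = 0.925), which became 0.04 when the arrays were scaled to their median. The interval corresponds to between 0.796 and 1.21 times the young level.

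The filaggrin group, or S100 fused-type proteins, joins a calcium-binding start to long repeats. Flg2 encodes filaggrin-2, and its values were 1.90, 1.99 and 1.67 in young and 2.18, 1.53 and 1.22 in aged epidermis. Aged replicate 1 was the highest array and aged replicates 2 and 3 were the lowest, so the aged group enclosed the young one. The difference was -0.21 ± 0.26 (95% interval -0.84 to 0.42, limma adjusted p = 0.698). Without aged replicate 1 it was -0.47 ± 0.17 (unadjusted p = 0.0307, adjusted p = 0.176), and without aged replicate 3 it was 0.01, so its size rested on single arrays.

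Hrnr encodes hornerin, a repeat protein of the same group. Its values were 5.65, 5.87 and 5.83 in young and 5.15, 6.09 and 6.03 in aged epidermis. Aged replicate 1 lay below every young value and aged replicates 2 and 3 above every one. The difference was -0.03 ± 0.27 (95% interval -0.68 to 0.62, limma adjusted p = 0.966), with 0.04 under scaling to the median. Without aged replicate 1 it was 0.27 ± 0.13 (adjusted p = 0.281). Flg2 and Hrnr therefore lay on opposite sides of the young values on all 3 aged arrays.

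Rptn encodes repetin, a further member of the fused-type proteins. Its values were 2.89, 2.83 and 2.23 in young and 0.55, 1.83 and 2.06 in aged epidermis. The 3 aged values lay below the 3 young values, but young replicate 3 and aged replicate 3 were only a small step apart, and aged replicate 1 stood far below the rest. The difference was -1.17 ± 0.42 (SE, 2.25-fold, 95% interval -2.20 to -0.14, unadjusted p = 0.0319, limma adjusted p = 0.239). A difference of at least 2-fold was seen in 5.21% of all features, and one of at least 2-fold downward in 4.05%. The difference kept its sign under each of the 18 other settings tried, from -1.46 to -0.59, and its adjusted p lay between 0.140 and 0.727. It was -0.71 ± 0.24 without aged replicate 1 (adjusted p = 0.160), -0.59 ± 0.25 without replicate 1 of both groups (adjusted p = 0.223) and -0.75 ± 0.61 within the slide row that held all aged arrays and 1 young array (adjusted p = 0.727). With the replicate number as a block, which pairs the arrays, it had an unadjusted p of 0.0578 and an adjusted p of 0.261, so that 0 of the 9 genes were under an unadjusted p of 0.05.

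**Figure D2:**
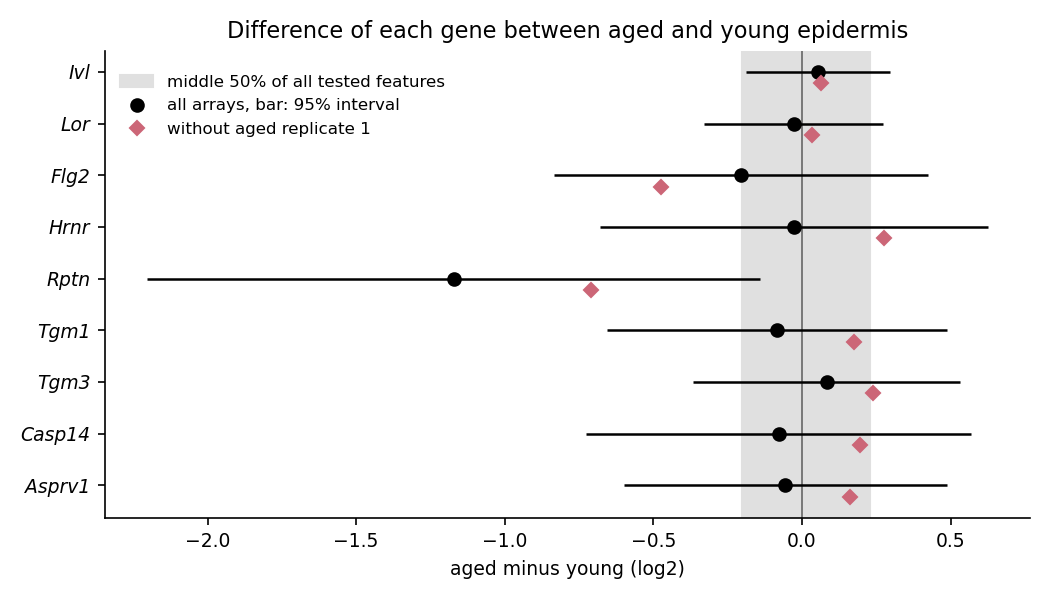
Difference between aged and young epidermis (log2, horizontal axis) for each of the 9 genes, with the 95% confidence interval (black) and the value without aged replicate 1 (red diamonds) over a band from the lower to the upper quartile of all tested features. The interval of Rptn, -2.20 to -0.14, is the only one that leaves out 0.

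The enzymes that crosslink the envelope are transglutaminases. Tgm1, the membrane-bound enzyme whose loss in humans causes lamellar ichthyosis, had values of 3.90, 4.12 and 4.01 in young and 3.41, 4.19 and 4.18 in aged epidermis. Aged replicate 1 lay below and the other aged arrays above all young values. The difference was -0.08 ± 0.24 (95% interval -0.66 to 0.49, limma adjusted p = 0.876), or 0.17 ± 0.13 without aged replicate 1 (adjusted p = 0.443).

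Tgm3, an enzyme of upper epidermis and of the hair follicle, was read by 2 probes that did not move alike. The brighter gave 3.15, 2.86 and 3.01 in young and 2.78, 3.39 and 3.10 in aged epidermis, a difference of 0.08 ± 0.18 (95% interval -0.37 to 0.53, limma adjusted p = 0.840). The dimmer gave 1.61, 0.92 and 1.65 in young and 1.13, 0.93 and 0.99 in aged epidermis, a difference of -0.38 ± 0.22 (adjusted p = 0.399 over all probes). Aged replicate 2 was the highest array for the first probe and near the lowest for the second. The mean of both probes gave -0.15 ± 0.17 (adjusted p = 0.661), so the sign of Tgm3 depends on the probe.

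The proteases act on filaggrin and its precursor. Casp14, caspase-14, takes part in the breakdown of filaggrin into free amino acids. Its values were 3.70, 3.46 and 3.42 in young and 2.90, 3.53 and 3.91 in aged epidermis, with aged replicate 1 lowest and aged replicate 3 highest. The difference was -0.08 ± 0.27 (95% interval -0.73 to 0.57, limma adjusted p = 0.900), and 0.20 ± 0.17 without aged replicate 1 (adjusted p = 0.525).

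Asprv1, also called SASPase, is an aspartic protease that cuts the linkers of profilaggrin. Its values were 7.21, 7.26 and 6.97 in young and 6.66, 7.16 and 7.45 in aged epidermis, again with aged replicate 1 lowest and aged replicate 3 highest. The difference was -0.06 ± 0.22 (95% interval -0.60 to 0.49, limma adjusted p = 0.915), with 0.01 under scaling to the median and 0.16 ± 0.16 without aged replicate 1 (adjusted p = 0.575).

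The spread within the aged group was larger than within the young group for 8 of the 9 genes, Ivl being the exception, where 64.6% of all features had the larger SD in the aged group. The median SD of the 9 genes was 0.14 in young and 0.45 in aged epidermis, against 0.16 and 0.22 over all features. Aged replicate 1 was the lowest of the 6 arrays for 7 of the 9 genes (Lor, Hrnr, Rptn, Tgm1, Tgm3, Casp14 and Asprv1), and it was the lowest for 25.1% of all features. Aged replicate 3 was the highest for 4 of the 9 (Ivl, Lor, Casp14 and Asprv1), against 30.3% of all features. From aged replicate 1 to aged replicate 2 the level was higher by 0.94 log2 units for Hrnr, 0.78 for Tgm1, 0.63 for Casp14 and 1.27 for Rptn, and lower for Flg2, with a difference of -0.65. These are differences between single arrays, with no replicate of the age of 22 months.

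**Figure D3:**
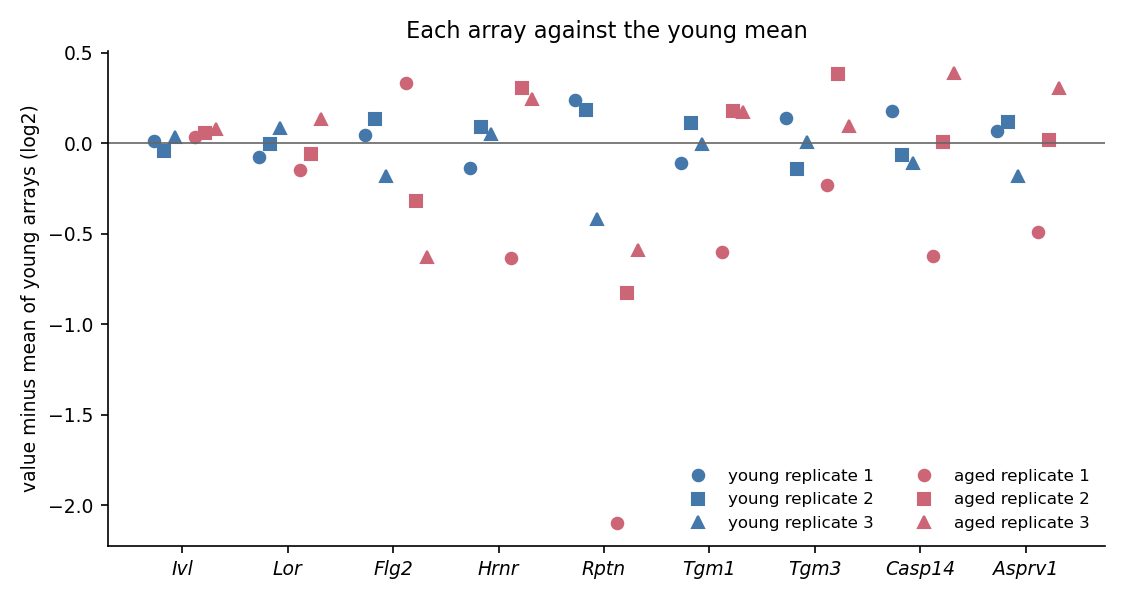
Each array's log2 value minus the mean of the 3 young arrays (vertical axis) for the 9 genes, young in blue and aged in red, with a symbol for each replicate number. Aged replicate 1 (red circles) lies lowest for 7 of the 9 genes, highest for Flg2 and within the young range for Ivl.

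Ddx3y and Eif2s3y, which lie on the Y chromosome, were well above background on 2 arrays, young replicate 1 and aged replicate 1, and on no other. In the aged group these transcripts, the age of 22 months and the single array cannot be told apart. Within these arrays, aged replicate 1 minus young replicate 1 was -2.34 for Rptn, -0.80 for Casp14, -0.55 for Asprv1, -0.50 for Hrnr, -0.49 for Tgm1, -0.37 for Tgm3, -0.07 for Lor, 0.02 for Ivl and 0.29 for Flg2. Among replicates 2 and 3 the difference of the means was -0.59 for Rptn, -0.45 for Flg2, -0.01 for Lor, 0.07 for Ivl, 0.12 for Tgm1, 0.19 for Asprv1, 0.21 for Hrnr, 0.28 for Casp14 and 0.31 for Tgm3. Rptn was lower in aged epidermis in both sets, while Flg2, Hrnr, Tgm1, Tgm3, Casp14 and Asprv1 had opposite signs in the 2 sets. Under the 18 other settings 0 of the 9 genes passed. Of all features 0.0798% passed with normexp correction, 0.0279% with quantile normalization, 0.124% with scaling to the median, 0.0271% with probes above background on all 6 arrays, 0.00205% with no filter, 1.25% without replicate 1 of both groups and 5.51% with array weights. The share was 0.0638% with the authors' deposited values and with the mean over probes, 0.14% with the Y-linked transcripts as a block, and 0% with any other array left out or with the replicate number or slide row as a block. At an unadjusted p under 0.05 Rptn remained when young replicate 3, aged replicate 2 or aged replicate 3 was left out (10.4%, 13.1% and 15.5% of all features) and with array weights (28.2%). It was not under it, and 0 of the 9 genes were, without young replicate 1 or 2 (18.1% and 10.3%), without replicate 1 of both groups (25.7%) and with the replicate number or the slide row as a block (20% and 6.95%). With the Y-linked transcripts as a block, where 24% of all features had such a p, 0 of the 9 genes passed in limma, and 1, Rptn, had an unadjusted p under 0.05. Without aged replicate 1, when 5.26% of all features passed, 0 of the 9 genes passed and 2, Rptn and Flg2, had an unadjusted p under 0.05, against 22.7% of all features.

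By likeness over the 6 arrays, measured as the root mean square difference of values centred on each gene's mean, the genes nearest to Rptn were Xlr4a (0.18 log2 units), Adcy1, an adenylyl cyclase gene (0.20), and Xlr4b (0.26). The values of Rptn deviated from their own mean by a root mean square of 0.78. Xlr4a differed between aged and young by -0.89 ± 0.47, Adcy1 by -1.25 ± 0.33 and Xlr4b by -0.75 ± 0.47, with limma adjusted p of 0.362, 0.176 and 0.429. The genes nearest to Casp14 were Txndc9 (0.03), Htt (0.05) and Arsa, which encodes a lysosomal sulfatase (0.06). No other gene of the group spanned more than 1 log2 unit.

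Of the 9 genes, Lor, Ivl, Flg2, Hrnr and Rptn lie in the epidermal differentiation complex, taken as the RefSeq genes from S100a1 to S100a10. Besides these 5, 60 genes of the complex were tested, 26 higher and 34 lower in aged epidermis, with a median difference of -0.08 and 0 past the threshold in limma. At an unadjusted p under 0.05 there were 0 higher and 5 lower of the 60. Of all features 18.4% had such a p, and 8.54% were lower, which is near the share of the 5. Without aged replicate 1, 18 of the 60 passed in limma, 4 of them lower and the others higher, against 5.26% of all features. Without replicate 1 of both groups 10 passed, against 1.25%. Aged replicate 1 was the lowest array for 43 of the 60 genes, against 25.1% of all features. Leaving it out raises the aged mean of those 43 by construction. Next to Lor lay Pglyrp3 (-0.04 ± 0.30), a peptidoglycan recognition protein gene, and Prr9 (-0.73 ± 0.23, adjusted p = 0.204). Next to Ivl lay Sprr4, a small proline-rich protein gene (-1.04 ± 0.84), and Smcp (0.13 ± 0.37).

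The end of the complex that holds Flg2, Hrnr and Rptn also held the other fused-type genes. Crnn, the cornulin gene next to Flg2, gave 2.22, 1.69 and 1.87 in young and 0.67, -0.47 and -2.86 in aged epidermis, a difference of -2.81 ± 0.85 (limma adjusted p = 0.201). Tchh, the trichohyalin gene next to Rptn, gave 7.40, 6.85 and 7.11 in young and 6.13, 4.04 and 1.23 in aged epidermis, a difference of -3.32 ± 1.16 (adjusted p = 0.227). Tchhl1, the trichohyalin-like gene beside it, differed by -3.70 ± 0.90 (adjusted p = 0.154). For these 3 genes aged replicate 3 was the lowest array, whereas for Rptn it was aged replicate 1. Without aged replicate 1 Crnn, Tchh and Tchhl1 passed (limma adjusted p = 0.0430, 0.0364 and 0.0362), and Rptn did not (adjusted p = 0.160). Without replicate 1 of both groups none of these 4 passed (adjusted p = 0.112, 0.101, 0.1004 and 0.223).

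**Figure D4:**
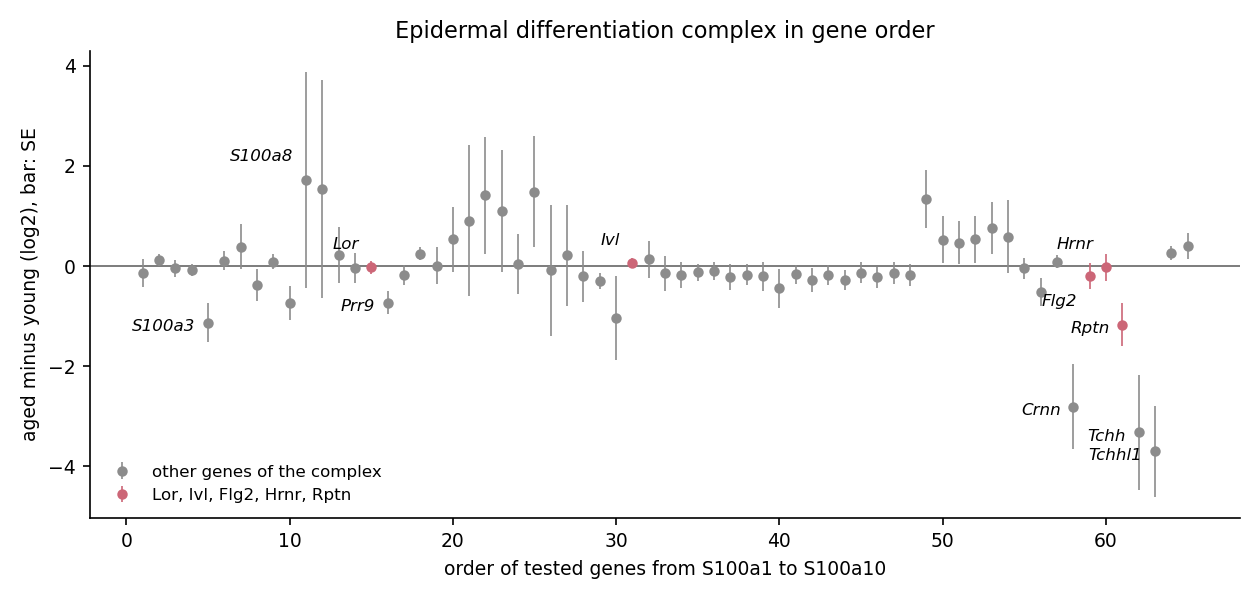
Difference between aged and young epidermis (log2, vertical axis, bars of 1 SE) for the 65 tested genes of the epidermal differentiation complex in gene order. Lor and Ivl lie near 0, and Rptn (-1.17) lies between Hrnr (-0.03) and Tchh (-3.32).

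Markers of other cells also differed between the arrays. Of 13 genes of hair shaft and inner root sheath 12 were lower in aged epidermis, with a median of -3.32, and 10 of the 13 did not overlap, all lower, against 10.1% of all features. Of these 13 genes 9 passed in limma without aged replicate 1, against 5.26% of all features. Without replicate 1 of both groups 1 passed, against 1.25%. Their summed signal, in units of the 75th percentile, was 1278 to 1941 on the young arrays and 1044, 247 and 113 on aged replicates 1, 2 and 3. None of the 13 was below background throughout either group. The order of these sums differed from that of Rptn, which was lowest on aged replicate 1. Of the Langerhans cell markers 6 of 7 were tested, and their summed signal was 9.51 to 13.6 on the young arrays and 3.16, 7.30 and 11.9 on aged replicates 1, 2 and 3. On aged replicate 1 the defining marker Cd207, and Itgax and H2-Aa, were at -6.96, -6.90 and -6.58, close to the level of Ddx3y on the arrays where it was not above background (-6.73 to -6.48). These 3 probes cleared background on aged replicates 2 and 3 but not on aged replicate 1. The part of either cell type in the values of Rptn, Hrnr, Tgm1, Casp14 and Asprv1 was not tested, and fewer cells of a type cannot be told apart from less RNA per cell in such samples. The suprabasal keratinocyte markers Krt1, Krt2, Krt10, Dsg1a and Dsc1 were all well above background on every array. Their summed signal was 1645 to 1709.8 in young and 1551 to 1766 in aged epidermis. This sum is weighted to the brightest probes, Krt10 and Krt2 (young means of 9.46 and 9.38). Of the 5 genes 3 were higher and 2 lower, with a median difference of 0.01 and -0.43 for Krt1. The 5 basal markers had summed signals of 871 to 937 and 934 to 1147. All 5 were higher in aged epidermis, with a median difference of 0.26, where 55.6% of all features were higher. Of the 5, 0 passed in limma. Of the 4 tail scale markers Krt36 differed by -0.05 and Krt84 by -0.02, while Krt31 (-3.37) and Krt35 (-3.95) are also in the hair list. Their summed signal was 1889 to 2188 in young and 1660 to 2011 in aged epidermis. Some other marker lists had median differences that were smaller with normexp correction, namely -1.52 against -0.99 for melanocytes (7 genes), -2.24 against -0.85 for fibroblasts (4), -1.77 against -0.63 for Langerhans cells (6), -0.77 against -0.24 for Merkel cells (2), -0.22 against -0.14 for endothelium (2) and -0.68 against -0.26 for muscle (2). All 7 melanocyte genes were lower, also with normexp correction, and 4 did not overlap, against 10.1% of all features counting lower ones alone. None of these 7 passed in limma on all arrays. Without aged replicate 1 all 7 passed, against 5.26% of all features, and without replicate 1 of both groups 3 did, against 1.25%. Of the 4 fibroblast genes 1 was higher and 3 were lower. In limma 2 passed, both lower, against 0.0638% of all features, and 0 passed with normexp correction, against 0.0798%. The summed signal of the 4 was 5.30 to 8.15 on the young arrays and 20.6, 4.02 and 2.51 on aged replicates 1, 2 and 3. Such a sum follows the brightest genes. The median of the 4 genes, each minus its young mean, was -2.02, -2.38 and -2.33 on these aged arrays, so the high sum on aged replicate 1 did not hold for the list as a whole. The medians were 0.07 for T cells (3) and -0.08 for sebaceous gland (6), but genes or arrays moved in opposite directions in both lists. Of the T cell genes 2 were higher and 1 lower, and 0 passed in limma. Their summed signal was 2.38 to 3.64 on the young arrays and 3.96, 10.2 and 7.03 on aged replicates 1, 2 and 3. Of the sebaceous genes 3 were higher and 3 lower. Their sums were 30.3 to 61.8 on the young arrays and 94.3, 44.0 and 21.1 on aged replicates 1, 2 and 3.

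Among the other genes of cornification, a list of 21 further envelope precursors had 8 higher and 13 lower, a median of -0.05 and 0 past the threshold, with 0 higher and 3 lower at an unadjusted p under 0.05, where 18.4% of all features had such a p and 8.54% were lower. These 3 were Crnn, Tchhl1 and Prr9. The split was 12 higher and 9 lower under scaling to the median and 5 and 16 under quantile normalization. Of 34 small proline-rich and late cornified envelope genes 15 were higher and 19 lower, with a median of -0.11 and 0 at an unadjusted p under 0.05, against 18.4% of all features. Lce3a differed by 1.34 ± 0.58 and Sprr1a by -0.29 ± 0.16 (limma adjusted p = 0.290 and 0.374). Aged replicate 1 was the lowest array for 30 of these 34 genes, against 25.1% of all features. Without it 12 of the 34 passed in limma, all of them higher, against 5.26% of all features. Without replicate 1 of both groups 8 passed, against 1.25%. Both fits leave out that array, which raises the aged mean of those 30 genes by construction, so no conclusion is drawn from these calls. Of all features 0% passed with any other single array left out.

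A list of 7 further enzymes held transglutaminases and the lipid envelope enzymes Alox12b, Aloxe3 and Sdr9c7. Of the 7, 3 were higher and 4 lower (2 and 5 under quantile normalization). At an unadjusted p under 0.05 there were 0 higher and 1 lower. Of all features 18.4% had such a p and 8.54% were lower. Tgm4, a transglutaminase known from the prostate, differed by -1.52 ± 0.47 (limma adjusted p = 0.205), with aged values of -2.91, -3.93 and -4.61 and 2 of 3 aged arrays well above background. It passed without aged replicate 1 (limma adjusted p = 0.0367) and not without replicate 1 of both groups (adjusted p = 0.0972). Aloxe3, a lipoxygenase of the lipid envelope, differed by -0.16 ± 0.31 (adjusted p = 0.814).

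Among 21 genes that process or break down filaggrin 8 were higher and 13 lower, with 2 higher and 5 lower at an unadjusted p under 0.05 and 0 past the threshold. Over all features 18.4% had such a p and 8.54% were lower. The largest differences were those of peptidylarginine deiminase genes, a family whose enzymes convert arginine to citrulline in proteins, filaggrin and trichohyalin among them. Whether Padi4 acts on filaggrin was not tested. Padi1 had values of 0.95, 0.50 and 0.61 in young and -0.53, -1.42 and -1.67 in aged epidermis, a difference of -1.89 ± 0.31 (limma adjusted p = 0.109). Padi3 and Padi4 differed by -4.06 ± 1.26 and -2.83 ± 0.77 (adjusted p = 0.205 and 0.180), and Padi3 is also in the hair list. Ctsh, a cathepsin gene, had the opposite sign, 0.68 ± 0.15 (adjusted p = 0.140). Without aged replicate 1 Padi1, Padi3 and Padi4 passed (limma adjusted p = 0.00704, 0.0244 and 0.00300), while Casp14 and Asprv1, the proteases described above, did not. Without replicate 1 of both groups Padi1 and Padi4 passed (adjusted p = 0.0251 and 0.0212) and Padi3 did not (adjusted p = 0.0834). Under scaling to the median the list had 11 higher and 10 lower.

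**Figure D5:**
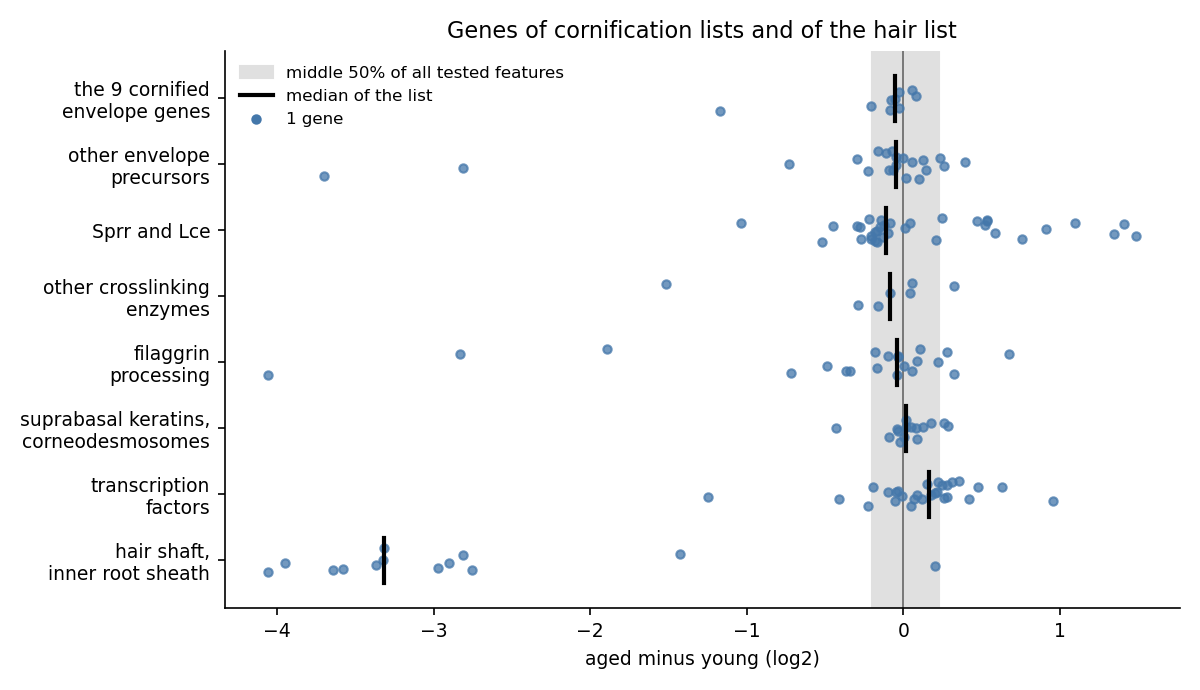
Difference between aged and young epidermis (log2, horizontal axis) for each tested gene (points) of the cornification lists and of the hair list, with the median of each list (black bar) over a band from the lower to the upper quartile of all features. The medians of the 7 cornification lists lie between -0.11 and 0.16, and that of the hair list at -3.32.

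Suprabasal keratin and corneodesmosome genes had 10 higher and 5 lower of 15, with a median of 0.02. At an unadjusted p under 0.05 there were 0, against 18.4% of all features. The split was 13 and 2 under scaling to the median and 7 and 8 under quantile normalization. Krt1, a keratin of the spinous layer, differed by -0.43 ± 0.31 and Dsg1a, a desmoglein, by 0.28 ± 0.16 (limma adjusted p = 0.486 and 0.377). Of 28 transcription factors of terminal differentiation 19 were higher and 9 lower, with a median of 0.16, where 55.6% of all features were higher. The split was 23 and 5 under scaling to the median. At an unadjusted p under 0.05 there was 1, against 18.4% of all features. That gene was Ahr, the aryl hydrocarbon receptor, a known regulator of filaggrin and loricrin, with values of 2.38, 2.44 and 2.42 in young and 2.87, 2.86 and 2.93 in aged epidermis. Its difference of 0.47 ± 0.10 did not pass (limma adjusted p = 0.131), although the 3 aged values lay above the 3 young values. Of the 28 genes 3 did not overlap, all higher, against 26.7% of all features.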

How the data were processed

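Agilent arrays of 1 colour (Cy3) measured amplified cDNA from the total RNA of tail epidermis in 3 young and 3 aged samples, per the labels' protocols. The arrays were read with Feature Extraction 11.5.1.1 on 1 slide in 1 scan, per the file headers. The deposited processed signal is a linear intensity per spot. Background subtraction and detrending were done within each array, per the file headers, with no scaling from array to array. A table deposited by the authors gives 33870 probes on a log2 scale. It matched the values used here once each probe was centred on its median over the arrays (correlation of at least 0.9999 on each array, column medians from -0.02 to 0.07).

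From each log2 processed signal the 75th percentile of its array was subtracted. These percentiles lay between 230.2 and 300.3 on the linear scale. Between 50.02% and 54.38% of 55681 probes were well above background, with 0 saturated spots, and precision is limited by the number of arrays. Control and outlier spots were left out. Of the probes 28331 matched a gene of GRCm38.p6 by RefSeq accession. Features above background on at least 3 of 6 arrays were tested, with the brightest probe for each gene (14136 genes and 10932 unnamed probes), with limma 3.58.1 in R 4.3.3, two-sided and with no covariate. The fit was tested on simulated data. With 3 arrays against 3 an exact permutation test cannot go below p = 0.1.

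The genes, lists and tests were chosen with earlier results of these data known. Named genes were all members, up to 4 genes of each list by unadjusted p, the nearest tested neighbours in the epidermal differentiation complex and the 3 genes nearest in pattern to a member that spans more than 1 log2 unit. Coordinates are printed only for RefSeq sequences, since the files use the mm9 build. The titles number both groups 1 to 3. Deviations of same-numbered arrays correlated with r of 0.414, 0.259 and 0.102 across features. Arrays with different numbers were not compared in this way, so these values cannot say whether the numbers pair the arrays. A pairing is not established, since the labels name nothing that same-numbered arrays share. The Y-linked transcripts were also well above background on replicate 1 of both groups alone. The fit with the replicate number as a block is given as an alternative, and the main fit has no block.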

Additional observations from a re-analysis of the deposited data

How the results depend on the processing

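None of the 9 genes passed the threshold under any of the 18 settings, 17 planned and 1, the Y-linked transcripts as a block, chosen after seeing the data. Rptn was lower and Ivl higher in aged epidermis under all 18. Of 162 differences of the 9 genes under these settings 26 had the opposite sign to the reported one, and the cause was not tested. Scaling to the median turned Lor to 0.040, Hrnr to 0.039 and Asprv1 to 0.012, normexp background correction turned Lor to 0.020, and the mean over probes turned Tgm3 to -0.15. Leaving out 1 array at a time gave ranges of -0.11 to 0.034 for Lor, -0.47 to 0.0061 for Flg2, -0.19 to 0.27 for Hrnr, -0.21 to 0.17 for Tgm1, -0.067 to 0.24 for Tgm3, -0.31 to 0.20 for Casp14 and -0.24 to 0.16 for Asprv1. Without replicate 1 of both groups Hrnr was 0.21, Tgm1 0.12, Casp14 0.28 and Asprv1 0.19. Blocking on slide row gave 0.033 for Casp14 and 0.12 for Asprv1. Array weights gave 0.15 for Hrnr, 0.064 for Tgm1, 0.061 for Casp14 and 0.048 for Asprv1. Genes of the group at an unadjusted p under 0.05 numbered 1, and 0 to 2 with 1 array left out (2 without aged replicate 1), 0 without replicate 1 of both groups, 0 with the replicate block and 0 with slide row as a block. The replicate block changed no other call on the 9 genes.

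Over all features the count past the threshold was 16, and it was 7 under quantile normalization, 31 under scaling to the median, 6 with probes above background on all 6 arrays, 1 with no filter, 0 with the replicate block, 0 with slide row as a block, 314 without replicate 1 of both groups, 1381 with array weights and 35 with the Y-linked transcripts as a block. With 1 array left out it was 0 to 1318, the highest without aged replicate 1 and 0 without each of the others. At an unadjusted p under 0.05 limma gave 5010 features with the replicate block. Normexp correction used the median spot signal, and array weights were estimated gene by gene.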
